A study of Mus musculus with 17 samples.

Results

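The genes described here are 41 enzymes and receptors of the eicosanoid pathways in mouse lung after focal irradiation. They were taken from the table of read counts by gene symbol: all rows whose symbol was on a fixed list of phospholipases, cyclooxygenases, lipoxygenases, prostaglandin and leukotriene enzymes, epoxide hydrolases and receptors. All 41 were found among the 45777 genes of the table, and 40 passed the filter on low counts, which left 22052 genes to test. The exception was Pla2g10, a secreted phospholipase A2, which lay between 0 and 0.158 CPM (counts scaled to the same library total) in every library. Together the 41 genes held between 0.137% and 0.175% of the counts of a library.

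Eicosanoids are short-lived lipid signals made from arachidonic acid. Phospholipases A2 release the acid from membranes. Cyclooxygenases then turn it into prostaglandin H2, from which separate synthases make prostaglandins, prostacyclin and thromboxane, while lipoxygenases start the leukotriene and hydroxy acid branches. Each product acts on its own G protein-coupled receptors, and in the lung these signals are known for their part in bronchial and vascular tone and in inflammation, while 15-hydroxyprostaglandin dehydrogenase clears prostaglandins from the lung.

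RNA was sequenced from lungs of male wild-type C57BL/6 mice that were 6 weeks old on arrival and were given a week to acclimatise. Non-irradiated controls were compared with mice that had received 65 Gy or 75 Gy to the left lung in a single fraction, at 2 weeks and at 6 weeks, the times that the study treats as its inflammation and fibrosis stages. There were 3 libraries in each group and 2 in the group of 65 Gy at 6 weeks, 17 in all. The methods state that RNA came from the lesions of irradiated tissue, so that a focal lesion is set against unirradiated lung. The mice carried no transgene or other altered allele in any group.

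Total counts lay between 46764569 and 66797879 per library, with a median of 57608149, so that 1 CPM stood for 46.7 to 67.7 counts. Values of 1 group are given in the order of the library numbers, which run from 3126 to 3128 for controls, 3129 to 3131 for 65 Gy and 3132 to 3134 for 75 Gy at 2 weeks. At 6 weeks they run from 3135 to 3137 for controls, 3138 and 3140 for 65 Gy, and 3141 to 3143 for 75 Gy. The labels do not state that the libraries came from separate animals, so p-values measure the spread between libraries. That spread was pooled over all groups, although it differed between them. The coefficient of variation estimated within a group was highest in 75 Gy at 2 weeks, at 0.265, and was 0.134 in controls of 6 weeks. P-values and standard errors therefore do not measure the spread of only the groups compared. Library 3134, of 75 Gy at 2 weeks, stood apart from its group, and the control libraries 3126 and 3135 had neutrophil marker sums of 623 and 623 CPM against 311 to 489 CPM in the other controls. Where the call of a member was lost without 1 of these libraries, the loss is stated. Calls of markers and of further pathway genes were not checked without them. The labelled tissue was checked with markers of alveolar type 2 cells, whose sum lay between 15084 and 29520 CPM.

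Groups were compared by the quasi-likelihood test of edgeR, with Benjamini-Hochberg adjusted p-values over all genes tested. A gene is called here where the adjusted p did not exceed 0.05 and the log2 fold change was 1 or more in either direction. The standard error (SE) given with log2 fold changes was derived from the F statistic of the test. It is the absolute log2 fold change divided by the square root of F. In 75 Gy against control at 2 weeks, 8 of the 40 tested members were called higher and 2 lower, where 5.67% and 2.07% of all genes tested were called. At 6 weeks the same dose had 12 members higher and 2 lower, against 7.28% and 3.13% of all genes. For 65 Gy, 5 members were higher and 1 was lower at 2 weeks, with 3.47% and 0.88% of all genes called, and 7 were higher and 1 was lower at 6 weeks, with 4.34% and 0.943% of all genes called. Each count of higher members includes Ptgdr, which passed the filter on low counts only through irradiated libraries. In tissue, fewer cells of a type and less RNA per cell cannot be told apart, and this holds for every difference below.

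By adjusted p alone, without the limit on fold, 20 members passed in 75 Gy at 2 weeks and 24 at 6 weeks, where 22.3% and 36% of all genes did. The same counts for 65 Gy were 11 and 18 members, where 11% and 14.7% of all genes passed. The median log2 fold change of the 40 members was 0.16 for 75 Gy and 0.23 for 65 Gy at 2 weeks, and 0.72 and 0.57 at 6 weeks, while over all genes tested the medians lay between -0.01 and 0.04. Both doses were set against the same control libraries at each time, so their results are not independent. The plot of log2 fold changes shows the members by branch.

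**Figure D1:**
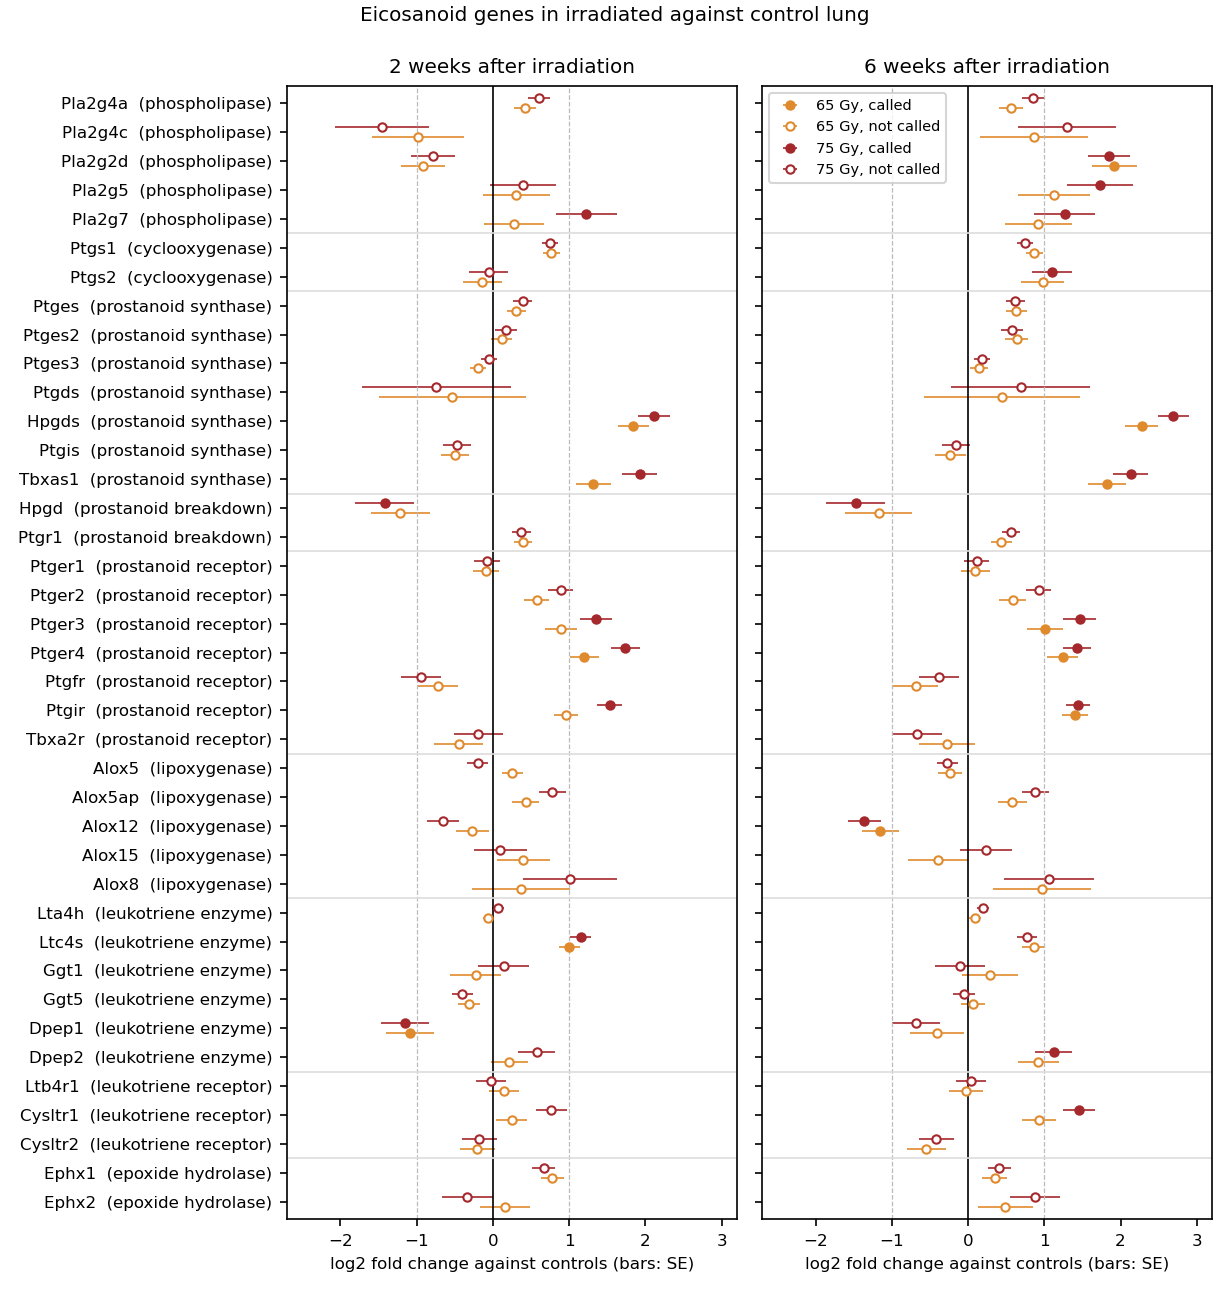
Log2 fold change of 39 members against the controls of the same time, at 2 weeks (left) and 6 weeks (right), for 65 Gy (orange) and 75 Gy (red), with bars of 1 SE and filled points for called genes. Hpgds lies farthest to the right at both times and doses, Hpgd, Dpep1 and Alox12 hold the filled points below 0, and Ptgdr is left out because 5 of the 6 control libraries had 0 counts.

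Hpgds, Tbxas1, Ptgdr and Ptger4 were the members called higher in all 4 comparisons of irradiated with control lung. They encode hematopoietic prostaglandin D synthase, thromboxane A synthase, the DP1 receptor of prostaglandin D2 and the EP4 receptor of prostaglandin E2. Their promoters are shown because the 4 genes moved in the same direction at both doses and times. For Ptgdr this direction was fixed in advance, because it passed the filter on low counts only through irradiated libraries. The sequences are RefSeq's for GRCm38.p6, 5′ to 3′ on the strand of the gene, up to 250 bases before the start. Bases inside an annotated GENCODE transcript of the gene were left out, which shortened the window of Hpgds to 72 bases and that of Tbxas1 to 244. The windows were Tbxas1 at chr6:38918736-38918979 on the plus strand, and on the minus strand Hpgds at chr6:65144909-65144980, Ptgdr at chr14:44859376-44859625 and Ptger4 at chr15:5244188-5244437. The start of Tbxas1 used by this table lies inside the gene's span. The window of Hpgds also lies inside the RefSeq span of its gene (chr6:65117293-65144981), so neither window lies upstream of the whole gene. Capitals mark matches, on either strand, to 7 motifs. They were the core bound by the myeloid factor PU.1 (GAGGAA), the site of the AP-1 factors (TGANTCA), the site of the C/EBP factors (TTGCNNAA), the box bound by the factor NF-Y (CCAAT), the box bound by the TATA-binding protein (TATAAA), the half-site of the cyclic AMP response element (TGACGT) and the site of NF-kB.
Tbxas1: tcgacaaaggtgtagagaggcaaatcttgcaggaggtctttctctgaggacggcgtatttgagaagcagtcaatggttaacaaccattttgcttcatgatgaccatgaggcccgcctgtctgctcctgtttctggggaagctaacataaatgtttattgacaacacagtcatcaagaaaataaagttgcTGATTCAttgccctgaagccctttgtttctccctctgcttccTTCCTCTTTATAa
Hpgds: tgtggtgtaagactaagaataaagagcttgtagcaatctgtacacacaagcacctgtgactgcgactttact
Ptgdr: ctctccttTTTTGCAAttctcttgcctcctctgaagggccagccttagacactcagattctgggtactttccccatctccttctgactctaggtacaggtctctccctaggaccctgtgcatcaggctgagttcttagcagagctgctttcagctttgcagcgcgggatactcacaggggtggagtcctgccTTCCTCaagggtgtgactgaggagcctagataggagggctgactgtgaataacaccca
Ptger4: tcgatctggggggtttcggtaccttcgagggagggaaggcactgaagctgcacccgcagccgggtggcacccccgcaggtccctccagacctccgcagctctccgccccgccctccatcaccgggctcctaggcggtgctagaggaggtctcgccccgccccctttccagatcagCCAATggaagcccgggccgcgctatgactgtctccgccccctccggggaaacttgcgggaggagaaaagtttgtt

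The window of Tbxas1 held 3 matches: TGATTCA for AP-1, then TTCCTC for the PU.1 core on the other strand and, right after it, TTTATA for the TATA box on the other strand. Among 32851 windows of 244 bases in the RefSeq table, 22.7% held the PU.1 core, 6.66% the AP-1 motif and 12.2% the TATA box. Ptgdr also had the PU.1 core on the other strand, as TTCCTC, and a C/EBP match, TTTTGCAA, motifs that 23.3% and 9.56% of the windows of 250 bases held. Ptger4 held only CCAAT, which 33.8% of such windows held, and the 72 bases of Hpgds held none of the 7 motifs. Among windows of 72 bases, the share with a match ran from 0.0883% for NF-kB to 9.86% for CCAAT. No motif was common to all 4 windows, an outcome fixed by the short window of Hpgds. Windows were found for 33 of the 41 members.

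Among the phospholipases, 3 of 5 tested members rose in 75 Gy at 6 weeks, where 7.28% of all genes tested were called higher. Pla2g2d was the member whose change differed between the times. Pla2g2d (chr4:138775735-138782052, plus strand) encodes a secreted phospholipase A2 known from lymphoid tissue and dendritic cells. At 6 weeks it had 1.44, 2.51 and 2.13 CPM in controls, 9.50 and 5.82 CPM in 65 Gy and 7.36, 7.11 and 7.49 CPM in 75 Gy. Every irradiated library of 6 weeks therefore lay above every control. Its log2 fold change there was 1.92 (SE 0.29, adjusted p = 8e-04) for 65 Gy and 1.85 (SE 0.27, adjusted p = 0.000191) for 75 Gy.

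At 2 weeks Pla2g2d lay on the other side of the controls, although neither dose was called. Controls had 1.04, 1.54 and 1.77 CPM, 65 Gy had 0.872, 0.666 and 0.766 CPM, and 75 Gy had 0.595, 1.18 and 0.739 CPM. The 65 Gy libraries lay below all controls, and 1 library of 75 Gy overlapped them. Its log2 fold change was then -0.92 (SE 0.29, adjusted p = 0.0565) for 65 Gy and -0.78 (SE 0.29, adjusted p = 0.0655) for 75 Gy. Tested directly, the effect of 75 Gy at 6 weeks exceeded its effect at 2 weeks by 2.63 on the log2 scale (SE 0.40, adjusted p = 0.0105), and Pla2g2d was the 1 member called in that comparison, which called 0.254% of all genes. For 65 Gy the difference was 2.83 (SE 0.41, adjusted p = 0.0418), again the 1 member called, with 0.0136% of all genes called. The second call was lost when any of 9 of the 11 libraries was left out, down to 2.44 without library 3138 and with adjusted p up to 0.148, and the first was kept in all 12 such fits. The long non-coding gene Gm32871 overlaps Pla2g2d, and how strand was used in counting is not given in the sources used here.

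Pla2g5 (chr4:138799247-138863562, minus strand), another secreted phospholipase A2, was a low gene that rose in 75 Gy at 6 weeks. It had 0.373, 0.392 and 0.436 CPM in controls, 1.006 and 0.751 CPM in 65 Gy and 1.15, 1.52 and 1.35 CPM in 75 Gy. The groups did not overlap, and the log2 fold change of 75 Gy was 1.74 (SE 0.43, adjusted p = 0.00632), while 65 Gy was not called (1.13, SE 0.47, adjusted p = 0.125). At 2 weeks the groups overlapped between 0.223 and 1.001 CPM. The annotated pseudogene Pla2g2a overlaps Pla2g5, so reads of this region may be split between them.

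Pla2g7 (chr17:43567994-43612202, plus strand) encodes platelet-activating factor acetylhydrolase, which is made by macrophages. At 6 weeks it had 31.9, 25.7 and 23.9 CPM in controls, 45.4 and 57.8 CPM in 65 Gy and 51.8, 75.6 and 69.5 CPM in 75 Gy. All irradiated libraries of 6 weeks were higher, and 75 Gy was called at a log2 value of 1.27 (SE 0.40, adjusted p = 0.0226). This call was lost without library 3136, 3137, 3142 or 3143, with adjusted p up to 0.0731.

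At 2 weeks the call of Pla2g7 rested on 1 library. Controls had 34.7, 22.6 and 24.1 CPM and 75 Gy had 26.4, 40.3 and 123 CPM, so the groups overlapped and library 3134 stood alone at the top. Its log2 value of 1.22 (SE 0.40, adjusted p = 0.0393) came to 0.30 without library 3134 (adjusted p = 0.43). It was also lost without library 3127 or 3128.

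The other phospholipases were not called. Pla2g4a, the cytosolic enzyme that releases arachidonic acid for most stimulated eicosanoid synthesis, was 17.7 to 23.0 CPM in controls and 24.9 to 40.7 CPM in irradiated lungs, and it passed by adjusted p alone in 3 comparisons, with log2 fold changes of 0.56 to 0.86. Pla2g4c ranged from 0.303 to 1.34 CPM in 16 libraries and reached 4.97 CPM in the control library 3127.

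The cyclooxygenases differed from each other. Ptgs1, which encodes the constitutive enzyme COX-1, was higher than in controls in every irradiated library at both times. Controls lay between 86.3 and 116 CPM and irradiated lungs between 133 and 196 CPM. Its log2 fold changes stayed under 1, at 0.74 for 75 Gy at both times and 0.77 and 0.87 for 65 Gy (SE 0.11 to 0.12, largest adjusted p = 0.000345).

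Ptgs2 (chr1:150100031-150108234, plus strand), the inducible COX-2, was called higher in 75 Gy at 6 weeks and lower in the controls of 6 weeks than in those of 2 weeks. The controls of 6 weeks had 14.0, 10.2 and 11.1 CPM, 65 Gy had 20.7 and 25.6 CPM, and 75 Gy had 18.5, 23.5 and 33.7 CPM. At 2 weeks controls had 40.5, 26.1 and 21.2 CPM, 65 Gy had 32.3, 27.7 and 19.8 CPM, and 75 Gy had 27.3, 23.9 and 33.2 CPM. The levels of all irradiated groups thus fell within the range of the controls of 2 weeks or just under it, and the controls of 6 weeks were the low group.

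The log2 fold change of Ptgs2 at 6 weeks was 1.10 for 75 Gy (SE 0.26, adjusted p = 0.00465) and 0.98 for 65 Gy (SE 0.28, adjusted p = 0.0326, under the limit on fold). Between the controls it was -1.31 (SE 0.26, adjusted p = 0.022), the 1 member called in that comparison, where 0.576% of all genes were called. That call was lost without library 3126, 3135, 3136 or 3137, and the call of 75 Gy was lost without library 3143 (0.85). Fos and Egr1, immediate-early genes that respond to handling as well as to signals and that were chosen after the values of Ptgs2 were seen, also varied: Fos was 191, 49.0 and 52.2 CPM in controls of 6 weeks and 183 to 439 CPM in irradiated lungs of that time, and Egr1 was 107 to 651 CPM and 311 to 913 CPM. Neither passed at 6 weeks, with adjusted p of 0.0715 and 0.245 for 75 Gy. Between the controls, where Ptgs2 was lower at 6 weeks, the log2 difference had the opposite sign, at 0.71 for Fos (adjusted p = 0.586) and 2.15 for Egr1 (adjusted p = 0.139). Their part in the differences of Ptgs2 was not tested.

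Hpgds (chr6:65117293-65144981, minus strand) had the strongest change of the prostanoid synthases, the enzymes that turn prostaglandin H2 into single prostanoids. It makes prostaglandin D2 in mast cells, macrophages and other cells of blood origin. At 2 weeks it had 2.78, 2.16 and 2.59 CPM in controls, 9.81, 9.61 and 7.64 CPM in 65 Gy and 7.55, 10.6 and 14.5 CPM in 75 Gy. At 6 weeks the values were 2.71, 2.01 and 2.20 CPM in controls, 11.5 and 10.9 CPM in 65 Gy and 13.4, 15.9 and 15.6 CPM in 75 Gy. Every irradiated library lay above every control, with no overlap at either time.

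The log2 fold change of Hpgds was 2.11 for 75 Gy at 2 weeks (SE 0.21, adjusted p = 1.14e-05) and 2.69 at 6 weeks (SE 0.21, adjusted p = 1.02e-06). For 65 Gy it was 1.84 (SE 0.21, adjusted p = 7.14e-05) and 2.28 (SE 0.22, adjusted p = 1.59e-05). Each of the 4 calls held when any 1 library was left out, with values from 1.75 to 2.83. Ptgds, the gene of the other prostaglandin D synthase, which is lipocalin-type, was near the limit of detection at 0 to 0.361 CPM and was not called.

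Tbxas1 (chr6:38864159-39084590, plus strand) makes thromboxane A2, which contracts vessels and airways and activates platelets. At 2 weeks it had 11.4, 9.10 and 11.0 CPM in controls, 27.0, 24.7 and 26.8 CPM in 65 Gy and 25.8, 31.8 and 61.8 CPM in 75 Gy. The libraries of 6 weeks had 10.9, 10.6 and 9.06 CPM in controls, 35.3 and 36.5 CPM in 65 Gy and 42.1, 46.5 and 45.5 CPM in 75 Gy. Irradiated and control libraries did not overlap, and library 3134 was the highest of all.

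For 75 Gy the log2 fold change of Tbxas1 was 1.92 at 2 weeks (SE 0.23, adjusted p = 7.06e-05) and 2.13 at 6 weeks (SE 0.23, adjusted p = 2.01e-05). For 65 Gy it was 1.32 (SE 0.23, adjusted p = 0.00197) and 1.82 (SE 0.25, adjusted p = 0.000306). Without library 3134 the value of 75 Gy at 2 weeks was 1.46 and was still called. The protein-coding gene Hipk2 and several non-coding genes overlap the span of Tbxas1. Tbxa2r, the receptor of thromboxane, did not pass in any comparison and lay between 2.78 and 9.08 CPM.

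**Figure D2:**
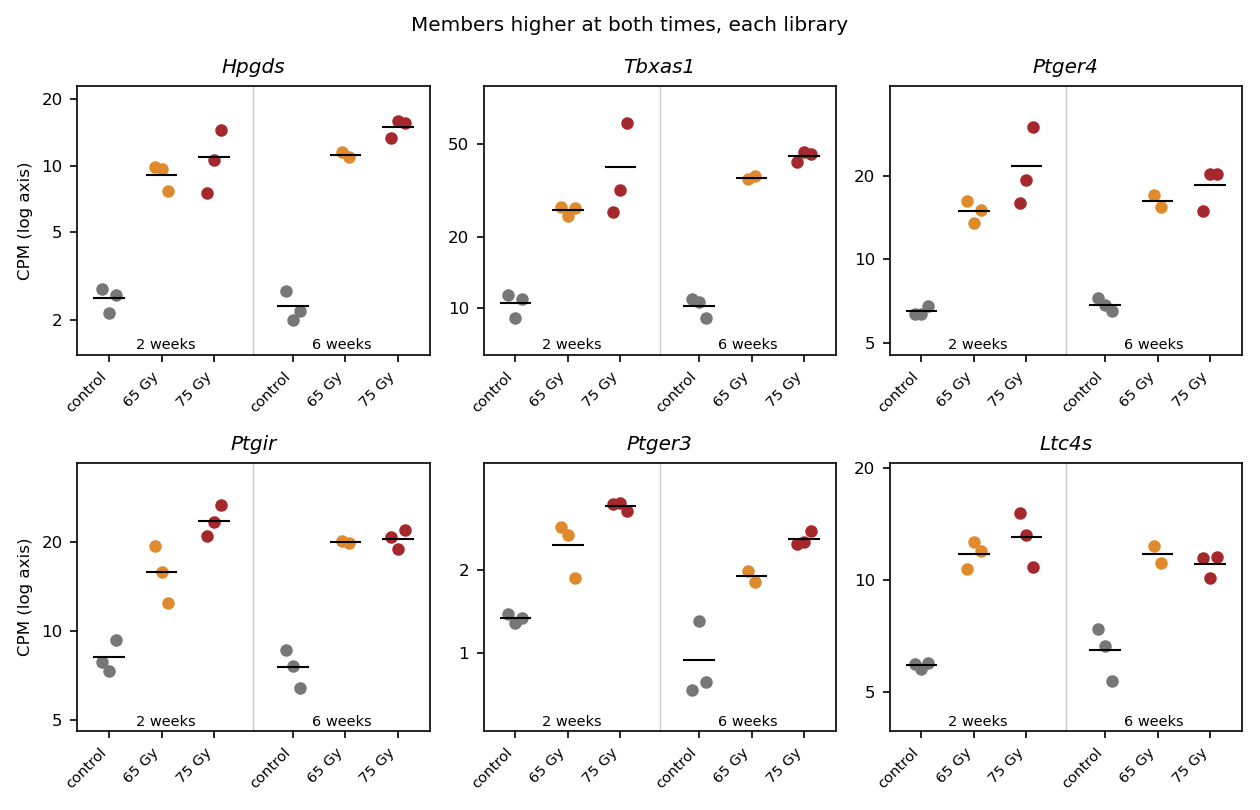
CPM on log axes of Hpgds, Tbxas1, Ptger4, Ptgir, Ptger3 and Ltc4s in each of the 17 libraries, by group, with controls in grey, 65 Gy in orange and 75 Gy in red, and a line at each group mean. In all 6 panels the irradiated points lie above the control points of the same time, and the highest Tbxas1 value, 61.8 CPM, is library 3134.

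The markers of monocytes and macrophages moved with these genes. The sum of the 10 markers was 461 to 554 CPM in the controls of both times and 1273 to 3098 CPM in irradiated lungs, and 8 of the 10 were called higher for 75 Gy at each time, with none at 0. For 65 Gy 7 were higher at 2 weeks and 8 at 6 weeks. Mast cell markers did so only in part. At 6 weeks 5 of 8 tested mast cell markers were called higher for 75 Gy and 2, Kit and Gata2, lower, with Cpa3 among the higher ones at 0.762 to 1.40 CPM in controls and 9.58 to 14.3 CPM in 75 Gy. At 2 weeks none was higher for 75 Gy and 3 were lower. For 65 Gy 1 was lower at 2 weeks, and 3 were higher and 2 lower at 6 weeks. Kit, Hdc and Gata2, which other cells also express, held most of the sum of this list, which was 440 to 533 CPM in controls and 242 to 315 CPM in irradiated lungs. Tpsab1 was at 0 in the controls of 6 weeks and in both irradiated groups of 2 weeks. The part of these cells in the changes of Hpgds and Tbxas1 was not tested.

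The synthases of prostaglandin E2 and prostacyclin moved little. Ptges, the inducible microsomal prostaglandin E synthase, passed by adjusted p alone in 3 comparisons with log2 fold changes of 0.39 to 0.63, and Ptges2 in the 2 of 6 weeks, with 0.58 and 0.64. Ptges3 passed only between the controls, where it was lower at 6 weeks (-0.50, SE 0.11, adjusted p = 0.0302). Ptgis, prostacyclin synthase, was 57.1 to 70.7 CPM in controls and 27.8 to 58.5 CPM in irradiated lungs and did not pass in any comparison.

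Hpgd (chr8:56294552-56321046, plus strand), the 15-hydroxyprostaglandin dehydrogenase that starts prostaglandin breakdown, was the most abundant member in control lung and fell in 75 Gy. At 2 weeks it had 650, 605 and 540 CPM in controls, 240, 288 and 247 CPM in 65 Gy and 358, 247 and 64.8 CPM in 75 Gy. The values at 6 weeks were 687, 608 and 701 CPM in controls, 223 and 367 CPM in 65 Gy and 226, 250 and 243 CPM in 75 Gy. No irradiated library reached the lowest control.

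The log2 fold change of Hpgd for 75 Gy was -1.42 at 2 weeks (SE 0.38, adjusted p = 0.0153) and -1.47 at 6 weeks (SE 0.39, adjusted p = 0.00832). At 2 weeks it was -0.98 without library 3134, under the limit on fold. For 65 Gy it was -1.21 (SE 0.38, adjusted p = 0.0546) and -1.17 (SE 0.44, adjusted p = 0.0867), which did not pass. Ptgr1, a reductase that acts on the products of this enzyme and on leukotriene B4, was 25.7 to 38.2 CPM in controls and 36.3 to 43.6 CPM in irradiated lungs, and passed by adjusted p alone in 3 comparisons with log2 fold changes of 0.37 to 0.56.

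Endothelial markers fell in the same libraries as Hpgd. The sum of the 6 markers was 2976 to 3399 CPM in controls and 1346 to 2440 CPM in irradiated lungs, with the lowest value in library 3134, and none of the 6 was at 0. For 75 Gy, 4 of the 6 were called lower at 6 weeks, where 3.13% of all genes were, and none at 2 weeks. For 65 Gy none was called at either time. The 3 club cell markers summed to 16446 to 20405 CPM in controls and 6232 to 13674 CPM in irradiated lungs. The 4 alveolar type 1 markers summed to 3023 to 3528 CPM in controls and 1789 to 3076 CPM in irradiated lungs. In each of these 2 lists 1 marker was called lower, for 75 Gy at 6 weeks only. The part of these cells in the fall of Hpgd was not tested.

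**Figure D3:**
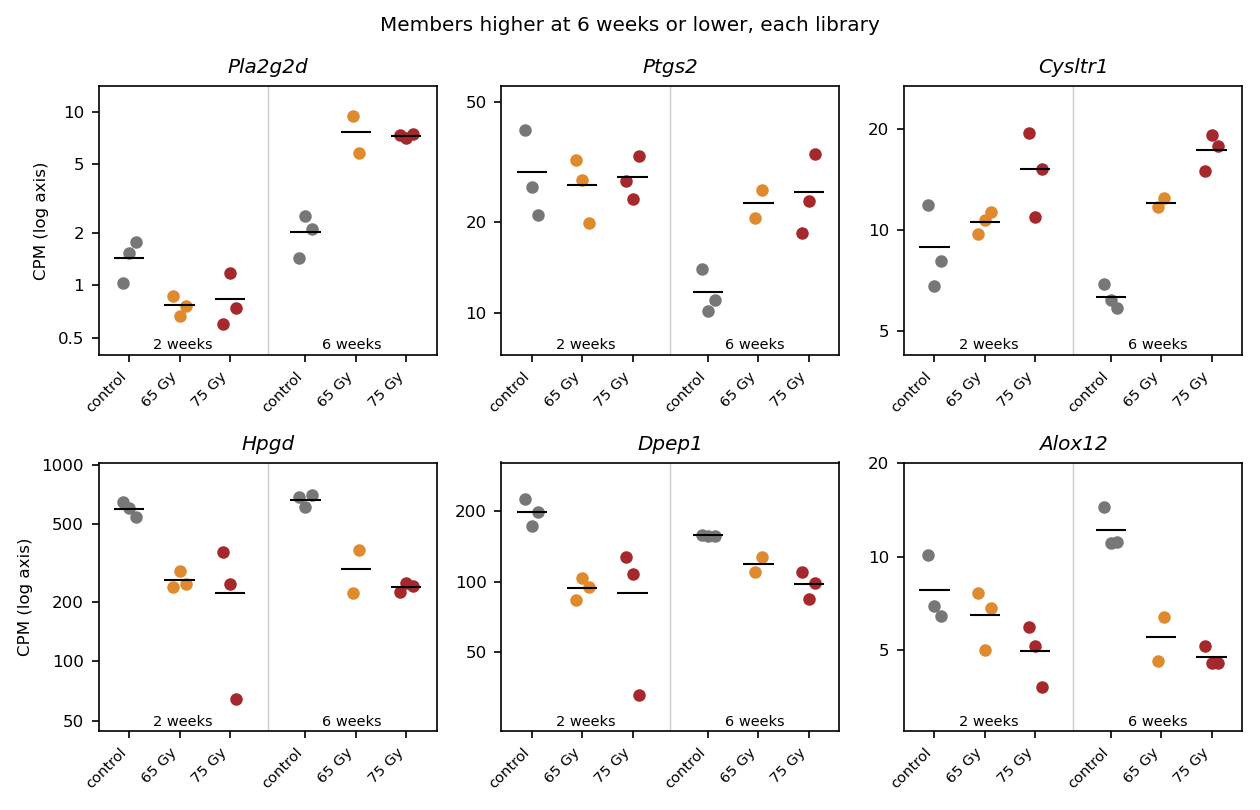
CPM on log axes of Pla2g2d, Ptgs2, Cysltr1, Hpgd, Dpep1 and Alox12 in each of the 17 libraries, by group, with controls in grey, 65 Gy in orange and 75 Gy in red, and a line at each group mean. Pla2g2d is above the controls at 6 weeks only, the low Ptgs2 group is the controls of 6 weeks, and the lowest Hpgd value, 64.8 CPM, is library 3134.

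Of the 8 prostanoid receptors, 4 were called higher in 75 Gy at each time, where 5.67% and 7.28% of all genes tested were. In 65 Gy 2 were called higher at 2 weeks and 4 at 6 weeks, where 3.47% and 4.34% of all genes were. Ptgdr, with almost no counts in controls, is in each of these counts, and no receptor was called lower. Ptger4 (chr15:5233399-5244187, minus strand), the EP4 receptor that raises cyclic AMP, had 6.37, 6.38 and 6.79 CPM in controls, 16.3, 13.6 and 15.01 CPM in 65 Gy and 15.9, 19.3 and 29.98 CPM in 75 Gy at 2 weeks. By 6 weeks Ptger4 had 7.25, 6.83 and 6.49 CPM in controls, 17.02 and 15.4 CPM in 65 Gy and 14.9, 20.3 and 20.3 CPM in 75 Gy. Irradiated libraries lay above all controls of their time, while the doses overlapped each other. For 75 Gy the log2 fold change was 1.74 (SE 0.19, adjusted p = 3.2e-05) and 1.43 (SE 0.19, adjusted p = 7.99e-05) at 2 and 6 weeks, and for 65 Gy it was 1.20 (SE 0.19, adjusted p = 0.000944) and 1.24 (SE 0.20, adjusted p = 0.00134).

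Ptger3 (chr3:157566821-157644758, plus strand) encodes the EP3 receptor, which lowers cyclic AMP. Its values at 2 weeks were 1.38, 1.28 and 1.33 CPM in controls, 2.86, 2.68 and 1.87 CPM in 65 Gy and 3.47, 3.49 and 3.27 CPM in 75 Gy. At 6 weeks it had 0.730, 1.301 and 0.786 CPM in controls, 1.98 and 1.81 CPM in 65 Gy and 2.48, 2.53 and 2.78 CPM in 75 Gy. Irradiated libraries were higher throughout. For 75 Gy the change was 1.35 on the log2 scale (SE 0.21, adjusted p = 0.000518) at 2 weeks and 1.47 (SE 0.21, adjusted p = 0.000179) at 6 weeks. For 65 Gy it was called at 6 weeks (1.01, SE 0.23, adjusted p = 0.0109), a call lost without library 3135, 3137 or 3138, and stayed under the limit on fold at 2 weeks (0.89, SE 0.21, adjusted p = 0.0149).

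Ptgir (chr7:16906490-16910905, plus strand), the receptor of prostacyclin, rose in 3 comparisons although its synthase Ptgis did not pass. Ptgir had, at 2 weeks, 7.86, 7.28 and 9.31 CPM in controls, 19.3, 15.8 and 12.4 CPM in 65 Gy and 20.8, 23.3 and 26.5 CPM in 75 Gy. By 6 weeks Ptgir had 8.63, 7.59 and 6.39 CPM in controls, 20.1 and 19.8 CPM in 65 Gy and 20.7, 18.8 and 21.8 CPM in 75 Gy. There was no overlap with the controls. Log2 fold changes were 1.53 (SE 0.16, adjusted p = 2.09e-05) and 1.44 (SE 0.16, adjusted p = 2.12e-05) for 75 Gy, and 1.40 (SE 0.17, adjusted p = 0.000131) for 65 Gy at 6 weeks. At 2 weeks 65 Gy passed by adjusted p alone (0.96, SE 0.16, adjusted p = 0.00136).

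Ptgdr (chr14:44851235-44859375, minus strand), the DP1 receptor for the product of Hpgds, was nearly absent from control lung. The control libraries of 2 weeks had 0 counts each, and those of 6 weeks had 0, 0 and 3 counts. At 2 weeks 65 Gy had 13, 2 and 9 counts (0.210, 0.0317 and 0.160 CPM) and 75 Gy had 34, 36 and 17 counts (0.595, 0.532 and 0.299 CPM). At 6 weeks 65 Gy had 25 and 29 counts (0.412 and 0.495 CPM), and 75 Gy had 45, 68 and 61 counts (0.738, 1.20 and 1.11 CPM).

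Every irradiated library thus held more reads of Ptgdr than any control except for 1 library of 65 Gy at 2 weeks, which had 2 counts against 0 in its own controls. Against a floor of 3 counts over the control group, the level at 2 weeks was 23.7-fold higher in 75 Gy and 6.55-fold higher in 65 Gy. Both values take the irradiated counts as exact and leave out the spread between libraries, so they are not lower bounds. At 6 weeks the ratio was 58.9 for 75 Gy (95% interval of the counts 19.8 to 289) and 26.4 for 65 Gy (8.57 to 132), intervals that cover counting error only. The adjusted p was 0.00085 and 0.0199 for 75 and 65 Gy at 2 weeks and 0.00023 and 0.005 at 6 weeks. Ptgdr entered the test only through irradiated libraries, so these p-values add no support to the counts. The call of 65 Gy at 2 weeks was lost without library 3127, 3128, 3129 or 3131. The non-coding genes Gm34198 and Gm16976 overlap Ptgdr.

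Of the remaining prostanoid receptors, Ptger2 (EP2, which also raises cyclic AMP) passed by adjusted p alone in all 4 comparisons, with 4.36 to 5.46 CPM in controls, 6.11 to 11.7 CPM in irradiated lungs and log2 fold changes of 0.58 to 0.92. Ptgfr, the receptor of prostaglandin F2 alpha, went the other way: it had 15.6 to 20.2 CPM in controls and 3.59 to 15.6 CPM in irradiated lungs, and passed by adjusted p alone in 75 Gy at 2 weeks (-0.94, SE 0.26, adjusted p = 0.0176). Ptger1 (EP1) did not pass in any comparison.

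Of the lipoxygenase branch, which makes leukotrienes and hydroxy acids, 1 member was called. Alox12 (chr11:70241457-70255380, minus strand), the platelet-type 12-lipoxygenase, fell at 6 weeks. It had 14.4, 11.1 and 11.1 CPM in controls, 4.62 and 6.40 CPM in 65 Gy and 5.15, 4.55 and 4.56 CPM in 75 Gy. Irradiated libraries lay below all controls, while the doses overlapped each other. The log2 fold change was -1.36 for 75 Gy (SE 0.22, adjusted p = 0.00031) and -1.15 for 65 Gy (SE 0.25, adjusted p = 0.00703). Without library 3138 the value of 65 Gy was -0.92, under the limit on fold. At 2 weeks Alox12 had 10.1, 6.94 and 6.45 CPM in controls, 7.64, 5.03 and 6.82 CPM in 65 Gy and 5.94, 5.14 and 3.82 CPM in 75 Gy, which passed by adjusted p alone (-0.66, SE 0.21, adjusted p = 0.0393).

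Platelet markers moved in part with Alox12 at 6 weeks. The sum of the 5 markers was 44.3 to 59.7 CPM in the controls of 6 weeks and 21.3 to 33.2 CPM in irradiated lungs of that time, and none was at 0. For 75 Gy 3 of the 5 were called lower, while Pf4 was higher by adjusted p alone (0.68, SE 0.23, adjusted p = 0.0318), and for 65 Gy 1 was called lower. At 2 weeks the sum was 23.5 to 62.7 CPM in controls and 23.6 to 40.2 CPM in irradiated lungs. The non-coding gene Gm40191 covers the whole of Alox12. The part of platelets in the fall of Alox12 was not tested.

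The genes that start leukotriene synthesis were not called. Alox5, the 5-lipoxygenase, was 13.6 to 26.1 CPM over all libraries and did not pass in any comparison. Alox5ap, its activating protein, was 34.6 to 50.1 CPM in controls and 53.2 to 102 CPM in irradiated lungs, and passed by adjusted p alone for 75 Gy at both times (0.78 and 0.88, SE 0.18). Alox15 and Alox8 lay at 1.64 to 5.35 CPM and 0.0406 to 0.493 CPM and did not pass.

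Among the leukotriene enzymes, Ltc4s (chr11:50236461-50238532, minus strand) makes leukotriene C4, the parent of the cysteinyl leukotrienes. At 2 weeks it had 5.93, 5.76 and 5.99 CPM in controls, 10.7, 12.6 and 12.0 CPM in 65 Gy and 15.1, 13.3 and 10.9 CPM in 75 Gy. At 6 weeks it had 7.36, 6.65 and 5.36 CPM in controls, 12.3 and 11.1 CPM in 65 Gy and 11.5, 10.1 and 11.6 CPM in 75 Gy. Irradiated libraries were higher than controls at both times.

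Ltc4s was called at 2 weeks, with a log2 fold change of 1.15 for 75 Gy (SE 0.14, adjusted p = 6.67e-05) and 1.0001 for 65 Gy (SE 0.14, adjusted p = 0.000333). The value of 65 Gy sat on the limit of fold and dropped under it with other size factors or tests. It also dropped under the limit without library 3127, 3130 or 3131, down to 0.947 without library 3130. At 6 weeks it passed by adjusted p alone, with 0.77 for 75 Gy and 0.86 for 65 Gy. Lta4h, which makes leukotriene B4, was 55.1 to 69.8 CPM in all libraries and did not pass.

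Of the dipeptidases that turn leukotriene D4 into leukotriene E4, Dpep1 was called lower at 2 weeks and Dpep2 higher at 6 weeks. No comparison called both. Dpep1 (chr8:123186235-123201812, plus strand) had 226, 173 and 200 CPM in controls, 83.3, 104 and 95.3 CPM in 65 Gy and 128, 108.1 and 33.0 CPM in 75 Gy at 2 weeks. Irradiated libraries lay below all controls, while the doses overlapped each other. The log2 fold change was -1.16 for 75 Gy (SE 0.32, adjusted p = 0.0159) and -1.08 for 65 Gy (SE 0.31, adjusted p = 0.0389). Without library 3134 the first was -0.76, under the limit on fold, and the second was lost when any 1 of its 6 libraries was left out, with adjusted p up to 0.138. At 6 weeks Dpep1 had 159, 158 and 157 CPM in controls and 84.8 to 128 CPM in irradiated lungs and was not called.

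Dpep2 (chr8:105984945-106006026) rose in 75 Gy at 6 weeks, with 12.7, 13.2 and 9.11 CPM in controls, 19.4 and 24.9 CPM in 65 Gy and 26.1, 24.8 and 25.5 CPM in 75 Gy. The log2 fold change was 1.12 (SE 0.25, adjusted p = 0.00277), and 0.97 without library 3137. For 65 Gy it was 0.92 (SE 0.27, adjusted p = 0.0329), under the limit on fold. At 2 weeks controls had 12.8, 11.6 and 15.3 CPM, 65 Gy had 14.9, 16.8 and 14.4 CPM, and 75 Gy had 13.5, 14.96 and 30.6 CPM, with overlap. Ggt1 and Ggt5, the transferases of the step before, did not pass in any comparison.

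Of the leukotriene receptors, Cysltr1 (chrX:106576509-106603679), the first receptor of cysteinyl leukotrienes, rose in 75 Gy at 6 weeks. It had 6.89, 6.204 and 5.88 CPM in controls, 11.7 and 12.4 CPM in 65 Gy and 15.03, 19.2 and 17.8 CPM in 75 Gy. The 3 groups did not overlap, and the log2 fold change was 1.46 for 75 Gy (SE 0.21, adjusted p = 0.000137) and 0.93 for 65 Gy (SE 0.22, adjusted p = 0.0129, under the limit on fold). Cysltr1 had, at 2 weeks, 11.9, 6.83 and 8.12 CPM in controls, 9.72, 10.7 and 11.3 CPM in 65 Gy and 19.5, 11.0 and 15.2 CPM in 75 Gy, with overlap, and 75 Gy passed by adjusted p alone (0.77, SE 0.20, adjusted p = 0.0136). The predicted gene Gm5127 overlaps Cysltr1. Cysltr2 and Ltb4r1, the receptor of leukotriene B4, did not pass.

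The epoxide hydrolases, which open fatty acid epoxides, were not called. Ephx1 was 145 to 215 CPM in controls and 208 to 328 CPM in irradiated lungs and passed by adjusted p alone in 3 comparisons, with log2 fold changes of 0.41 to 0.78. Ephx2 passed by adjusted p alone in 75 Gy at 6 weeks (0.88, SE 0.33, adjusted p = 0.0476).

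Between genes, levels were compared per kilobase of exons. In the controls of 6 weeks Hpgd stood at the top with a mean of 395 CPM per kilobase, followed by Ephx1 with 107 and Dpep1 with 63.5. Hpgds had 0.359 CPM per kilobase, near the bottom of the list. In 75 Gy at 6 weeks Hpgd and Ephx1 both had 142 CPM per kilobase, and Hpgds had 2.33. Tbxas1 went from 1.12 to 4.91 CPM per kilobase. Among the prostaglandin E2 receptors, Ptger4 was the highest in 75 Gy with 2.78, followed by Ptger2 with 1.66, Ptger1 with 0.972 and Ptger3 with 0.456, so that Ptger3 was the lowest after its rise as before it, at 0.165.

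**Figure D4:**
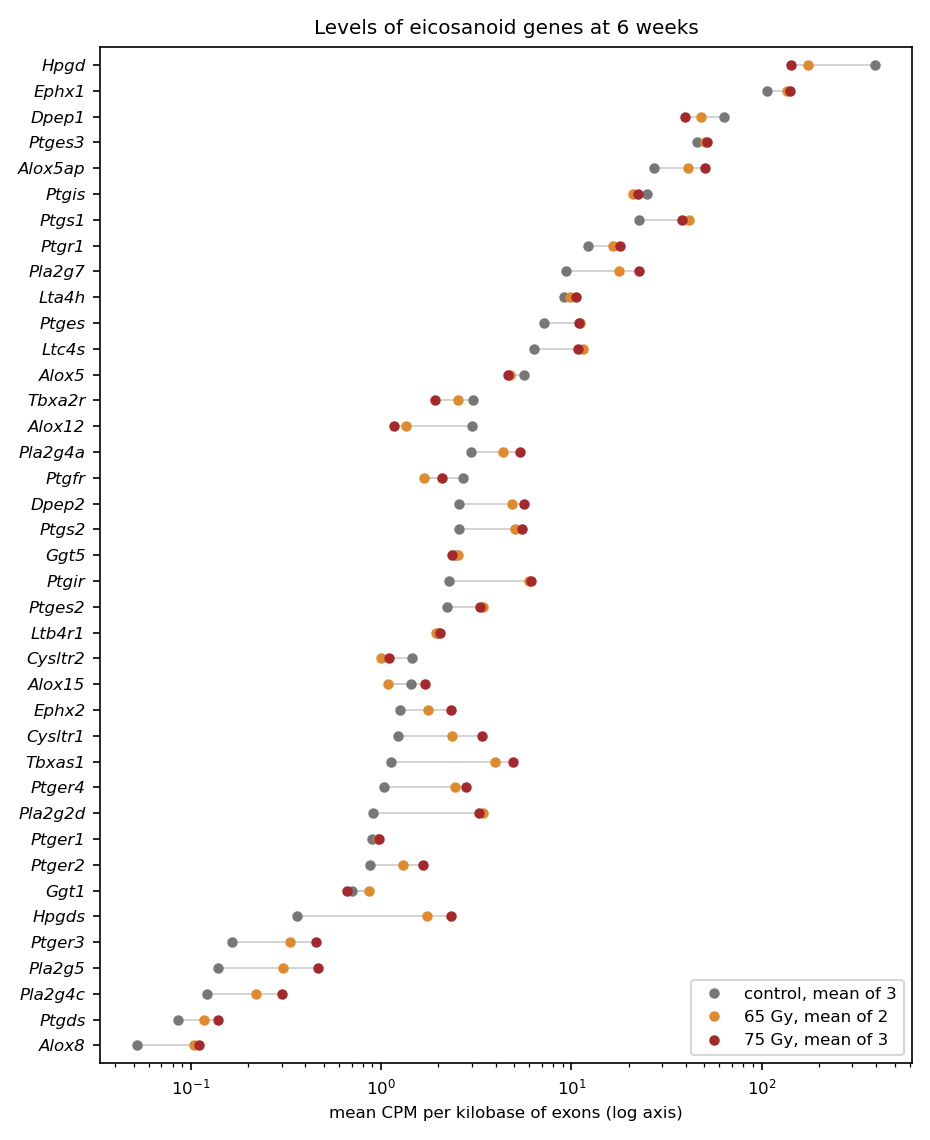
Mean CPM per kilobase of exons of 39 members at 6 weeks on a log axis, ordered by the controls (grey, mean of 3), with 65 Gy in orange (mean of 2) and 75 Gy in red (mean of 3). Hpgd lies highest in controls at 395, and in 75 Gy it lies level with Ephx1 at 142.

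No member was called between the doses. In 75 Gy against 65 Gy edgeR's quasi-likelihood test called 0 of the 40 members and 0% of all genes at each time, with a smallest adjusted p among members of 0.693 at 2 weeks and 0.735 at 6 weeks. At an unadjusted p under 0.05 there were 8 members at 2 weeks, where 7.12% of all genes passed, and 1 at 6 weeks, where 6.49% did. DESeq2 called 7 and 14 genes and edgeR's exact test 7 and 11, with 0 members by either. The 95% interval of the log2 difference between the doses was -0.14 to 0.68 for Hpgds at 2 weeks and -0.05 to 0.88 at 6 weeks. For Tbxas1 it was 0.13 to 1.08 and -0.22 to 0.85, and for Ptgir 0.24 to 0.90 and -0.33 to 0.40. These intervals are not adjusted for the number of genes tested. Those of Tbxas1 and Ptgir at 2 weeks leave out 0, although neither gene passed after adjustment. Library 3134, with 61.8 CPM of Tbxas1 against 25.8 and 31.8 CPM in its group, is part of the former. The data thus do not show that the doses act alike on these genes.

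Further genes of the same pathways were read from a list of 68, of which 59 were tested. For 75 Gy 1 was higher and 2 were lower at 2 weeks, and 2 were higher and 3 were lower at 6 weeks, while 65 Gy had 0 higher and 2 lower at 2 weeks and 0 in either direction at 6 weeks. Over all genes tested, 5.67% were higher and 2.07% lower for 75 Gy at 2 weeks, 7.28% and 3.13% at 6 weeks, and 3.47% and 0.88% for 65 Gy at 2 weeks, so these few calls are no result about the list. Its median log2 fold change lay between -0.02 and 0.15 in the 4 comparisons. Lpcat2, which puts fatty acids back into phospholipids and makes platelet-activating factor, was higher in 75 Gy at both times (1.496, SE 0.34, adjusted p = 0.00577, and 1.09, SE 0.34, adjusted p = 0.0202). Its range at 2 weeks was 17.5 to 69.9 CPM in 75 Gy against 12.9 to 14.0 CPM in controls. Anxa1, long known as an inhibitor of phospholipase A2, was higher in 75 Gy at 6 weeks, with 434 to 613 CPM against 216 to 242 CPM (1.24, SE 0.26, adjusted p = 0.00232).

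Slco2a1, the transporter that takes prostaglandins up for breakdown by Hpgd, fell in 75 Gy at 6 weeks. It had 693 to 728 CPM in controls, 398 to 434 CPM in 65 Gy and 277 to 348 CPM in 75 Gy (-1.23, SE 0.15, adjusted p = 5.23e-05 for 75 Gy). Ptgdr2, the other receptor of prostaglandin D2, was lower in 75 Gy at 6 weeks, at 0.265 to 0.771 CPM against 0.945 to 1.25 CPM (-1.06, SE 0.39, adjusted p = 0.0468), where Ptgdr was higher. Ltb4r2, the low-affinity receptor of leukotriene B4, was also lower there (-1.44, SE 0.36, adjusted p = 0.00651). At 2 weeks Cyp2e1 (-1.79, SE 0.40, adjusted p = 0.00547) and Cyp2c44 (-1.50, SE 0.43, adjusted p = 0.0206), cytochromes P450, were lower in 75 Gy. In 65 Gy at 2 weeks Fpr2, a receptor of lipoxin A4 among other ligands (-1.37, SE 0.31, adjusted p = 0.0105), and the epoxide hydrolase Ephx3 (-1.48, SE 0.24, adjusted p = 0.00123) were lower.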

How the data were processed

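Per the methods, reads were cleaned by Trimmomatic, mapped by HISAT2 on build GRCm38.p6 and assembled per gene by StringTie. The table that the authors deposited holds counts per gene, as whole numbers and not normalized. Libraries were made with a stranded kit. How strand and reads of more than 1 place were treated is not given in the sources used here.

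A single model of the 17 libraries, with a term for each group, was fitted by edgeR 4.0.16 under R 4.3.3. Low genes were removed by filterByExpr (at least 10 counts, 15 in total), and CPM were scaled with TMM factors. Groups were compared with the quasi-likelihood test and Benjamini-Hochberg adjustment, with limits of 0.05 and an absolute log2 fold change of 1. Confidence intervals are at 95%. On simulated counts of 75 Gy against control at 2 weeks, the test recovered 191 of 200 genes changed 4-fold among 21615, with 4 false calls. The changed genes were drawn above a floor of expression, and all groups were given the same spread. Changes near the limit on fold and changes of low genes were not simulated. Lengths are the union of GENCODE exons, and gene positions are RefSeq's for GRCm38.p6.

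Members called in a comparison are given with every library, other members by ranges, and pathway genes when called against controls, up to 3 in each direction. The members and the lists were chosen with earlier results of these data known. Alternatives were RLE and upper-quartile factors, other filters, DESeq2 1.42.0, edgeR's exact test, only the groups compared, no limit on fold, and leaving out libraries. The highest Pearson correlation between 2 libraries was 0.987, and none was a duplicate.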

Additional observations from a re-analysis of the deposited data

Results flagged for a closer look

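Pla2g2d, a secreted phospholipase A2, changed differently at the 2 times at both doses, by a direct test of the difference between the effects in edgeR's quasi-likelihood fit. For 75 Gy the effect at 6 weeks was higher than that at 2 weeks by 2.63 on the log2 scale (SE 0.40, adjusted p = 0.0105), and for 65 Gy by 2.83 (SE 0.41, adjusted p = 0.0418). The doses share their controls, so these are not separate observations. The alveolar macrophage markers had a sum of 1394 to 2094 CPM in irradiated lungs at 6 weeks against 483 to 639 CPM in controls, and of 651 to 949 CPM against 533 to 1217 CPM at 2 weeks. The 9 markers of this list did not move together: at 6 weeks 2 were called higher and 2 lower for 75 Gy, with a median log2 fold change of 0.06, and 4 higher and 0 lower for 65 Gy, and at 2 weeks 1 was higher and 4 were lower at each dose. In the direct test for 75 Gy 0 of these 9 were higher and 1 was lower, where 0.254% of all genes were called. That test called 2 of 8 tested mast cell markers and 2 of 5 fibroblast markers higher, none lower, and no marker of another list. For 65 Gy 1 alveolar macrophage marker was higher, with 0.0136% of all genes called, and no marker of another list was called. The part of these cells in the difference of Pla2g2d was not tested.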

How the results depend on the processing

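Without the limit on fold, the members called against controls numbered 20 and 24 for 75 Gy at 2 and 6 weeks in place of 10 and 14, and 11 and 18 for 65 Gy in place of 6 and 8. The call between the controls was the least stable. It was 1 member in the main fit, 2 with DESeq2, edgeR's exact test or adjusted p alone, 0 with only the groups compared or without libraries 3126, 3134 and 3135, and 0 to 2 when 1 library was left out. For 65 Gy at 2 weeks, leaving out 1 library gave 3 (without library 3127) to 6 members. The effect of 75 Gy at 6 weeks against that at 2 weeks had 3 members with DESeq2 in place of 1, and that of 65 Gy 0 to 1 when 1 library was left out. No result changed sign in any alternative run. With only the groups compared, the calls of Pla2g7, Hpgd and Dpep1 in 75 Gy at 2 weeks were lost, with adjusted p of 0.199, 0.146 and 0.155, and the cause was not tested. Of the values of single genes, 308 kept their side of the limits and 13 did not in alternatives other than leaving out 1 library, and 208 did and 41 did not when 1 was left out. For Ptgdr some adjusted p of DESeq2 were missing and were not counted. No paired analysis was possible because no library number occurs in more than 1 group. Depth limits Ptgdr, Pla2g10, Ptgds and Alox8, whose values rest on few counts, and 65 Gy at 6 weeks rests on 2 libraries.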
